A study of Mus musculus with 6 samples.

Results

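Integrins and cadherins are the receptors by which a bone-forming cell holds on to matrix and to its neighbours. The genes described here are those whose symbol is Itga or Itgb with its chain number or letter, or Cdh with a number, in the deposited expression table. The table held 48 of them among 29587 gene rows, 25 integrins and 23 cadherins. Of the 48, 14 reached 1 RPKM (reads per kilobase of gene, scaled to library size) in at least 3 libraries, 11 integrins and 3 cadherins, and so did 40.6% of all rows. The libraries came from osteoblasts of young mice (3 libraries) and of old mice (3 libraries). In both groups, adherent cells grown from cut bone were passaged, held in osteogenic medium for 3 days and killed with ultraviolet light for 0.5 h. The labels give the genotype as none, and the sources used here do not give age, strain or sex, nor say whether each library came from its own animal or culture. P-values therefore speak only of spread among libraries, and that spread may be technical. Values with ± are means and SD over the 3 libraries of a group, and a log2 difference carries its SE.

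An integrin is a pair of 1 alpha and 1 beta chain. The alpha chain largely sets which ligand is held (collagen, laminin, or proteins with an arginine-glycine-aspartate sequence, RGD), and the beta chain links through talin and kindlin to actin. Cadherins bind the same kind of cadherin on the next cell and hold beta-catenin, p120-catenin and alpha-catenin at their tails. Osteoblasts are known for beta1 integrins on collagen and fibronectin, and for N-cadherin (Cdh2) and cadherin-11 (Cdh11, once called OB-cadherin).

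Young replicate 1 stood apart from the other 5 libraries. Depth was 64881180 to 84535939 reads recovered from the RPKM values. Across the 12015 genes tested, Pearson's r of log2 values was 0.949 and 0.962 between young replicate 1 and the other young libraries, against 0.996 between those and 0.995 to 0.997 among old libraries. The distance went with gene length. Young replicate 1 lay below the mean of young replicates 2 and 3 in 39.2% of genes of up to 2 kb and in 75.2% of genes of 4 to 8 kb, the class of 9 of the 14 expressed members. Of the 14, 10 were lower in young replicate 1 than that mean, with a median difference of -0.29 on the log2 scale, against 60.4% and -0.14 over all genes tested. Old libraries also differed from young replicates 2 and 3 with gene length. The median log2 difference, old minus those 2, was 0.049 in genes of up to 2 kb. It was -0.105 at 4 to 8 kb and -0.167 over 8 kb. Leaving out young replicate 1 therefore does not remove a length trend. The part of gene length in the results was not tested beyond an alternative that removed its trend. The osteoblast label was met in part, with Col1a1 (type I collagen) at 1062 to 1829 RPKM and Runx2 at 3.67 to 5.66 RPKM, while the osteoblast markers Alpl and Bglap stayed under 1 RPKM in every library. Of 8 tested osteoblast markers, Spp1 was called higher in old and Sp7, the osterix gene, lower (limma adjusted p = 0.0186). Over all genes tested, 1.47% were called higher and 0.0999% lower. Of 5 listed cartilage genes, 3 had values. Col2a1 and Sox9 were at 21.5 to 53.6 and 12.7 to 19.7 RPKM, while Comp was under the filter at 0.15 to 0.36 RPKM.

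Of the integrins 11 of 25 were expressed and of the cadherins 3 of 23, and no member passed the test between old and young. Itgb1 led the integrins and Cdh11 the cadherins in all 6 libraries. Limma, fitted on log2(RPKM + 1) over 12015 genes with Benjamini-Hochberg adjustment, called 0 of the 14 members at an adjusted p under 0.05, where it called 1.57% of all genes (1.47% higher and 0.0999% lower in old). At an unadjusted p under 0.05 there were 3 members (Cdh2, Itgb5 and Itga2b), against 11.2% of all genes, and voom on the recovered reads also called 0. Itga2b reached 1 RPKM in 1 young and 3 old libraries and so passed the filter through the group where it was higher, which limits its place in these counts and those below. These 3 were also the members whose groups did not overlap, with Itgb5 and Itga2b higher and Cdh2 lower in every old library. Groups did not overlap in 20.8% of all genes tested, 10.6% higher and 10.2% lower. The median log2 difference, old minus young, was -0.06 over the 14 members and 0.01 over all genes. Without young replicate 1, 2 members were called higher (Itgb5 and Itga2b) and 5 lower (Cdh2, Cdh11, Itga3, Itga10 and Itga11). That fit called 13.2% of all genes higher and 19.4% lower, 32.6% in all. Groups then did not overlap for 9 of the 14 members and for 62.5% of all genes. In RNA of whole cultures, fewer cells of a type and less RNA per cell cannot be told apart.

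**Figure D1:**
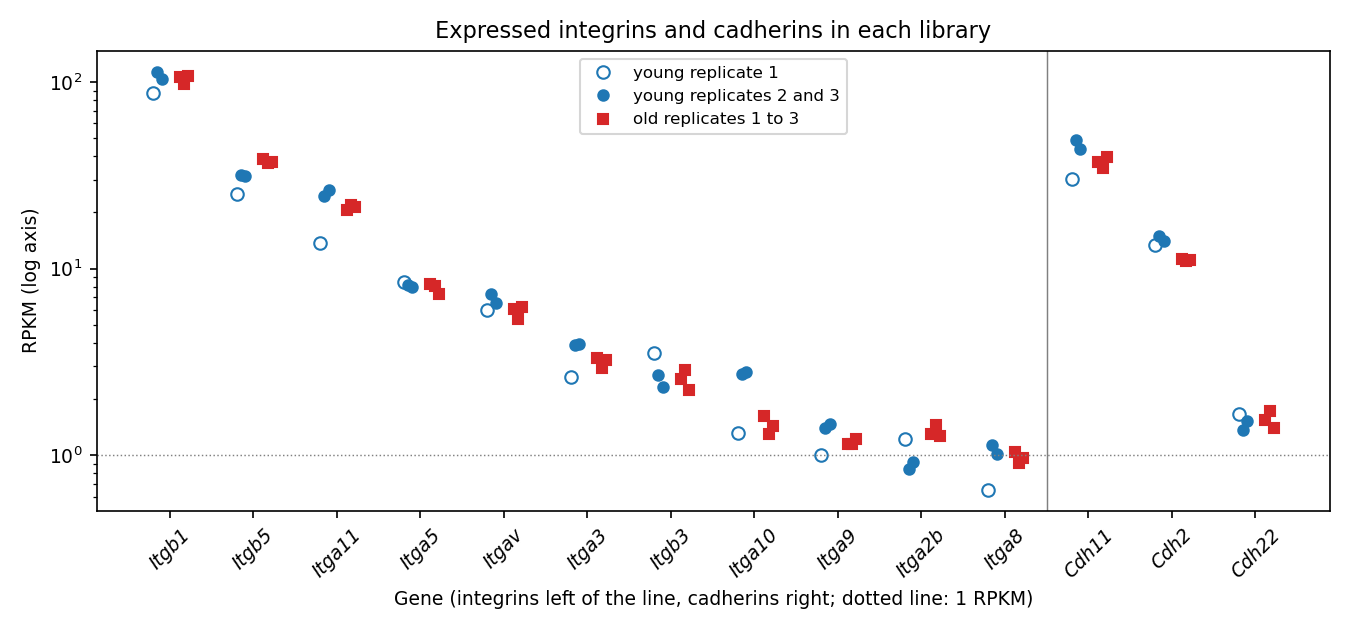
RPKM of the 14 expressed members in each library, on a log axis; open circles are young replicate 1, filled circles young replicates 2 and 3, squares the old replicates. Itgb1 was near 100 RPKM, Itgb5, Itga11 and Cdh11 between 13.8 and 49.1, and the open circle lies below both filled circles for 10 of the 14 genes.

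Among the beta chains, Itgb1 and Itgb5 made up nearly all of the RNA. Itgb1, the partner of most alpha chains (mm10 chromosome 8, 128685654 to 128733200), stood at 87.6, 113.7 and 104 RPKM in young replicates 1, 2 and 3 and at 106.4, 97.7 and 107.1 RPKM in the old. The groups overlapped. The log2 difference was 0.03 ± 0.12 (SE, limma adjusted p = 0.986), with a 95% interval from -0.26 to 0.33, a fold of 0.835 to 1.26. Leaving out young replicate 1 gave -0.07, also not called (limma adjusted p = 0.437).

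Itgb5, which pairs with the alpha v chain and binds vitronectin and other RGD proteins (mm10 chromosome 16, 33829665 to 33949153), stood at 25.2, 31.8 and 31.2 RPKM across the young libraries, against 38.7, 36.6 and 37.1 in the old. Each old library lay above each young one, young replicate 1 included. Mean RPKM in old was 1.27 times that in young, with a log2 difference of 0.35 ± 0.11 (SE, limma adjusted p = 0.315) and a 95% interval from 0.07 to 0.62. With young replicate 1 left out the difference was smaller, 0.24 ± 0.05, and was called (limma adjusted p = 0.0146). Itgb3, 1 of several other beta partners of alpha v, was at 3.53, 2.69 and 2.33 RPKM across the young libraries. It was at 2.55, 2.85 and 2.23 in the old, and its groups overlapped. Young replicate 1 was its highest library, above the mean of the other young libraries by 0.37 on the log2(RPKM + 1) scale.

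The balance of Itgb1 and Itgb5 did not overlap between groups. The ratio of Itgb1 to Itgb5 RPKM was 3.48, 3.57 and 3.33 in young and 2.75, 2.67 and 2.89 in old. Young replicate 1 fell between the other young libraries in this ratio, although both of its levels were lower. Itgb5 took 21.9 ± 0.661% of the summed beta chain RPKM in young and 26 ± 0.692% in old, and Itgb1 took 75.8 ± 0.756% and 71.9 ± 0.95%. The ratio of Itgb5 to Itgav was 4.2, 4.38 and 4.75 in young and 6.38, 6.86 and 5.93 in old. The ratio of Itgb3 to Itga2b, the pair of the platelet fibrinogen receptor, was 2.53 to 3.18 in young and 1.76 to 1.97 in old. These ratios, 3 of 5 computed, did not overlap between groups, while Cdh11 to Cdh2 and Itga11 to Itgb1 did. Each of the 3 holds Itgb5 or Itga2b, whose own groups did not overlap, so their count is no separate result. The ratios were chosen after the values were seen and carry no test. With 3 libraries against 3, the smallest two-sided p of an exact permutation test is 0.1. A ratio shows unequal levels and not which of its genes differed.

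**Figure D2:**
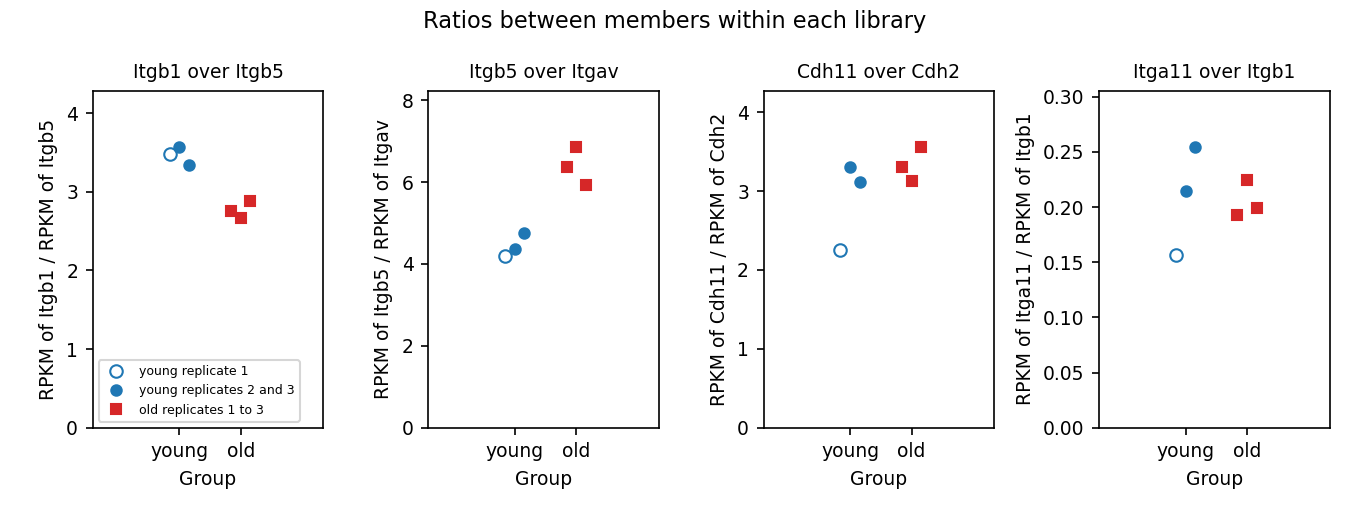
RPKM ratios within each library for 4 pairs of members, from 0, with symbols as in the plot of levels. Itgb1 over Itgb5 lay at 3.33 to 3.57 in young and 2.67 to 2.89 in old, Itgb5 over Itgav at 4.2 to 4.75 and 5.93 to 6.86, and the other 2 pairs overlapped.

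The starts of Itgb1, Itgb5 and Itgav are shown because these 3 genes form 2 of the 3 ratios that did not overlap between young and old. Each run holds the 250 bases before the start in RefSeq (GRCm38.p6, all on the plus strand, 5' to 3'), and that start was also the first exon base of the gene in the deposited table. Capitals mark the GC box GGGCGG, read on both strands, a motif of the factor Sp1. The windows are chr8:128685404-128685653 for Itgb1, chr16:33829415-33829664 for Itgb5 and chr2:83724147-83724396 for Itgav.
Itgb1: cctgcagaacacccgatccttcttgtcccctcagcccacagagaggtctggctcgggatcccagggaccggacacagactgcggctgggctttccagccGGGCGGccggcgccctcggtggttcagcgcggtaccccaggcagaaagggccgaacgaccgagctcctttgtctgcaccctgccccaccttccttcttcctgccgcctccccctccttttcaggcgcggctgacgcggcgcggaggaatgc
Itgb5: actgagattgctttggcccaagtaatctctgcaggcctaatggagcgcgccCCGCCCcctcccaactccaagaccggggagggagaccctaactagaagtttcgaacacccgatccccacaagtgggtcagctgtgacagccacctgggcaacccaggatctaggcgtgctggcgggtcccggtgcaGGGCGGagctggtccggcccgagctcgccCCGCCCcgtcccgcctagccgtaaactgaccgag
Itgav: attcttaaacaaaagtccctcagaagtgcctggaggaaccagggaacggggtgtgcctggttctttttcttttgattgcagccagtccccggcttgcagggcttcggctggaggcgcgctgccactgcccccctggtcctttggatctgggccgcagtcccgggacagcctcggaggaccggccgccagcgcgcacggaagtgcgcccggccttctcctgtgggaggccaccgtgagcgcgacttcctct

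All 3 runs are rich in G and C, at 68, 65.2 and 64.4% for Itgb1, Itgb5 and Itgav, against a median of 52.4% over 32851 RefSeq promoters of the same length. Itgb5 holds 3 GC boxes, Itgb1 holds 1 and Itgav 0, and 32.7% of all promoters hold at least 1. None of the 3 holds TATAAA or CCAAT on either strand, which 12.4% and 33.8% of all promoters do. RefSeq promoters were found for 11 of the 14 expressed members, in 12 windows. A match in these letters is a description of the sequence only.

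Itga11 was the most abundant alpha chain in all 6 libraries. This chain pairs with beta1 on fibrillar collagen (mm10 chromosome 9, 62677826 to 62783982) and stood at 13.8, 24.4 and 26.5 RPKM across the young libraries, against 20.6, 21.9 and 21.3 in the old. The old libraries lay between young replicate 1 and the other young libraries. With all libraries the log2 difference was 0.03 ± 0.24 (SE, limma adjusted p = 0.992), with a 95% interval from -0.55 to 0.61. It turned to -0.25 ± 0.06 without young replicate 1 and was called (limma adjusted p = 0.0217). Itga11 alone held 45.3 ± 6.35% of the summed alpha chain RPKM in young and 47.6 ± 1.75% in old.

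Itga10, a collagen receptor chain known from cartilage (mm10 chromosome 3, 96645584 to 96664519), stood at 1.32, 2.71 and 2.78 RPKM across the young libraries, against 1.63, 1.29 and 1.44 in the old. Young replicate 1 sat among the old libraries, below old replicates 1 and 3. Its log2 difference of -0.38 ± 0.20 was the most negative of the 14 members (SE, limma adjusted p = 0.619). Leaving that library out gave -0.61 ± 0.08 (SE, limma adjusted p = 0.00335), the lowest adjusted p among members in that fit, and the mean of old was 0.53 times that of young replicates 2 and 3. Of its 5186 exon bases, 1739 also belong to Gm42957 on the same strand. The sources used here do not say how reads in shared bases were counted, so its value is uncertain. The other collagen-binding chains passed no filter. Itga1, which binds basement membrane collagen, was at 0.808 ± 0.133 and 0.79 ± 0.00542 RPKM (young, then old), and Itga2 had at most 7 reads in a library.

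Among the chains that bind RGD proteins, the groups overlapped for Itga5, Itgav and Itga8 and did not for Itga2b. Itga5, the fibronectin receptor chain (mm10 chromosome 15, 103344286 to 103366763), stood at 8.47, 8.21 and 8.01 RPKM across the young libraries, against 8.29, 8.02 and 7.35 in the old. Young replicate 1 was the highest library, by a small margin. The log2 difference was -0.06 ± 0.09 (SE, limma adjusted p = 0.955), with a 95% interval from -0.27 to 0.15. Itgav, the alpha v chain that binds vitronectin, osteopontin and latent TGF-beta, was at 5.99, 7.27 and 6.57 RPKM across the young libraries, against 6.07, 5.34 and 6.26 in the old. Its groups overlapped through young replicate 1 alone, and it was not called with that library or without it (limma adjusted p = 0.8 and 0.0912). Itga8, a nephronectin receptor chain, lay at the filter, at 0.936 ± 0.253 and 0.974 ± 0.0652 RPKM (young, then old).

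Itga2b, the alpha chain of the platelet fibrinogen receptor (mm10 chromosome 11, 102453297 to 102470122), stood at 1.22, 0.843 and 0.92 RPKM across the young libraries, against 1.3, 1.44 and 1.26 in the old. All old libraries were above all young ones, young replicate 1 by the least. The log2 difference was 0.23 ± 0.09 (SE, limma adjusted p = 0.439), and 0.31 ± 0.07 without young replicate 1, where it was called (limma adjusted p = 0.0169). Of 6 platelet markers none passed the filter, and their summed level was 0.154 to 0.224 RPKM in young and 0.237 to 0.295 in old. Pf4, Gp9, Ppbp and Treml1 were at 0 in every young library and at 0 to 0.0687 RPKM in old. Gp1ba averaged 0.183 RPKM in young and 0.182 in old, and Gp5 0.0169 and 0.00402. The part of such cells in the result was not tested.

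The laminin receptor chain Itga3 was at 2.62, 3.9 and 3.93 RPKM across the young libraries, against 3.31, 2.94 and 3.23 in the old. The old libraries again lay between young replicate 1 and the others. It was called lower only without young replicate 1, at -0.24 ± 0.07 (SE, limma adjusted p = 0.0323), against -0.09 ± 0.14 with it (limma adjusted p = 0.956). Itga9, which binds tenascin and osteopontin, averaged 1.29 ± 0.248 RPKM across the young libraries and 1.17 ± 0.0459 in the old and was called in neither fit. Its sister chain Itga4 stayed at 0.0293 to 0.0664 RPKM.

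**Figure D3:**
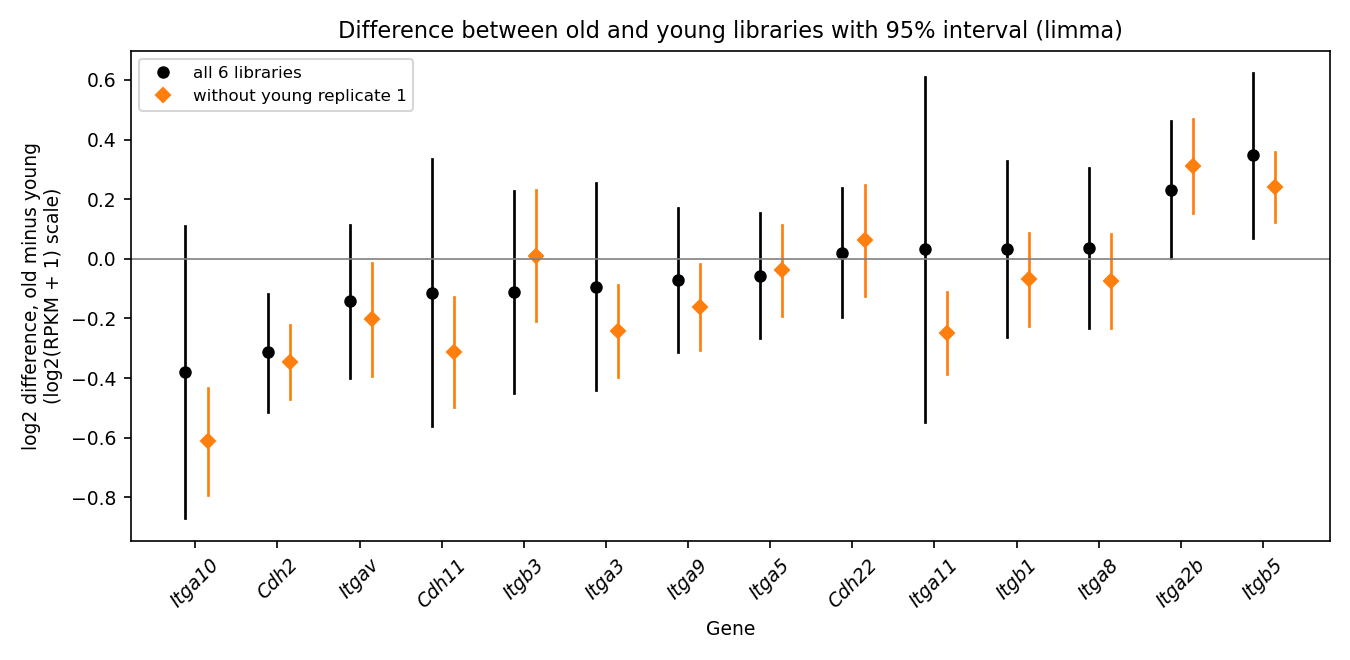
Log2 difference, old minus young, on the log2(RPKM + 1) scale with the 95% interval from limma, for the 14 expressed members; circles use all 6 libraries and diamonds leave out young replicate 1. The intervals narrow and several values move down without that library, as for Itga11 (0.03 to -0.25) and Cdh11 (-0.11 to -0.31), while Itgb5 and Itga2b stay above 0 and Cdh2 below 0 in both.

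Cdh11 and Cdh2 were the main cadherins of these cells. Cdh11, a type II cadherin (mm10 chromosome 8, 102632095 to 102785642), stood at 30.3, 49.1 and 43.6 RPKM across the young libraries, against 37.2, 34.6 and 39.7 in the old. Young replicate 1 was the lowest of the 6 libraries and young replicate 2 the highest, so the old libraries fell within the young range. The log2 difference was -0.11 ± 0.19 (SE, limma adjusted p = 0.963), with a 95% interval from -0.56 to 0.34. Without young replicate 1 it was -0.31 ± 0.08 and was called (limma adjusted p = 0.0261).

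Cdh2, N-cadherin, a type I cadherin (mm10 chromosome 18, 16588877 to 16809246), stood at 13.5, 14.9 and 14 RPKM across the young libraries, against 11.3, 11 and 11.1 in the old. Every old library was below every young one, and young replicate 1 lay close to its group. Mean RPKM in old was 0.79 times that in young. The log2 difference of -0.31 ± 0.08 had the smallest p of the 14 members (limma adjusted p = 0.186), with a 95% interval from -0.51 to -0.12, a fold of 0.702 to 0.922. Leaving out young replicate 1 gave -0.35 ± 0.05, which was called (limma adjusted p = 0.00604).

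Together Cdh11 and Cdh2 carried most of the cadherin RNA. Cdh11 was 71 ± 4.5% of the summed cadherin RPKM in young and 73.3 ± 1.59% in old, and Cdh2 was 25 ± 3.67% and 22 ± 0.934%. The ratio of Cdh11 to Cdh2 was 2.25 in young replicate 1, 3.3 and 3.12 in the other young libraries and 3.13 to 3.56 in old, so the groups overlapped. The type II cadherin Cdh22 was the other expressed member, at 1.52 ± 0.151 and 1.55 ± 0.167 RPKM, with a 95% interval of the log2 difference from -0.20 to 0.24.

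The remaining 34 members did not pass the filter, and 27 of them had means under 0.1 RPKM in both groups. Cadherins that mark other tissues were low. Cdh5, the endothelial cadherin, had at most 2 reads in a library, Cdh15, the muscle cadherin, was read in 1 library only, and Cdh1, the epithelial cadherin, was at 0.0394 to 0.0776 RPKM. The summed level of 5 epithelial markers with values was 0.959 to 2.05 RPKM in young and 2.79 to 3.01 in old, most of it Krt14, and their part in the Cdh1 values was not tested. Leukocyte alpha chains were also low, with Itgal and Itgam at no more than 0.0283 RPKM, Itgad at no more than 0.0676 and Itgae at no more than 0.0816. For a 1 kb gene the limit set by 3 reads was 0.0355 to 0.0462 RPKM, counting error alone. It is lower for these members, the shortest of which (Cdh6) has 2632 bases, and Cdh1 had 12 to 30 reads a library. Of the 34, 6 had groups that did not overlap, all higher in old (Itga6, Itgb2, Itgb8, Cdh1, Cdh18 and Cdh26), against 6.08% higher and 3.76% lower among all genes under the filter with any reads. Cdh18 is among them with 0 reads in each young library and 1 to 4 reads in each old one.

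Itgb2, the beta chain of leukocyte integrins (mm10 chromosome 10, 77530252 to 77565708), had the largest ratio of these 6 among those read in both groups. It was singled out after its values were seen. The young libraries held 10, 6 and 7 reads of it, the old ones 42, 55 and 60, or 0.0345 ± 0.0139 and 0.215 ± 0.0453 RPKM, a ratio of means of 6.23. Each old library lay above each young one, at a level far below 1 RPKM. Leukocyte markers were low or overlapped between groups, and their part in the Itgb2 values was not tested. Ptprc, which encodes CD45, was at 0 in 4 libraries and at no more than 0.00281 RPKM in the others, and the macrophage gene Adgre1 was at 0 in 5. Other markers of that list were higher, with overlapping groups. Cd68 was at 0.54 to 1.04 RPKM, Csf1r at 0.36 to 0.618 and Cd14 at 0.307 to 0.662. Of 10 leukocyte markers with values, 1 passed the filter (Lyz2, at 6.54 to 8.53 RPKM), and their summed level was 8.3 to 9.6 RPKM in young and 9.27 to 10.6 RPKM in old. Itga6, a laminin receptor chain, was at 0.328 ± 0.108 and 0.481 ± 0.0341 RPKM, and Cdh26 at 0.197 ± 0.00823 and 0.246 ± 0.016 RPKM. Itga7, Itgb7 and Cdh24 had overlapping groups at 0.0188 to 0.526 RPKM, and Cdh24 shares 284 exon bases with Gm20726 on the opposite strand.

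**Figure D4:**
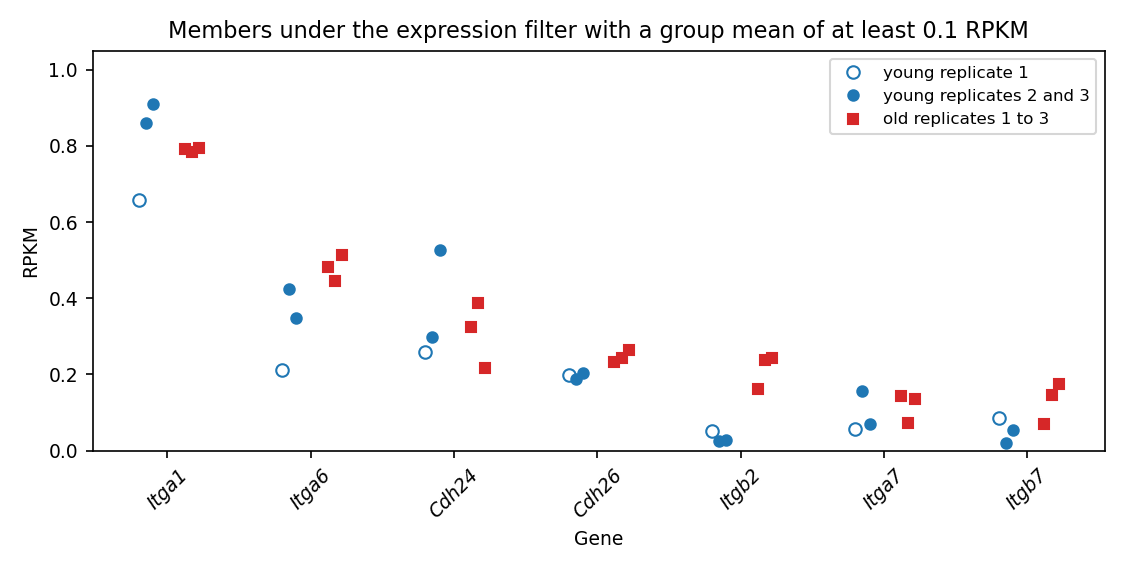
RPKM of the 7 members under the filter with a group mean of at least 0.1 RPKM, with symbols as in the plot of levels. Itgb2, Itga6 and Cdh26 have all old squares above all young circles, and every value is under 1 RPKM.

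Of the molecules that integrins and cadherins bind, Spp1 and Cd47 passed the test. Both were higher in old. Of 26 tested matrix ligands, 1 was called higher and 0 lower, against 1.47% and 0.0999% of all genes. Their median log2 difference was 0.00, against 0.01 over all genes. Spp1, osteopontin, a ligand of alpha v and alpha 9 integrins, was at 376, 233 and 262 RPKM across the young libraries, against 691, 694 and 811 in the old. Its log2 difference was 1.36 ± 0.20 (SE, limma adjusted p = 0.0307). The matrix protein gene Tgfbi was at 6.36 ± 1.15 and 4.14 ± 0.191 RPKM and the growth factor gene Tgfb3 at 19.2 ± 3.43 and 27.4 ± 0.698 RPKM, with limma adjusted p = 0.179 and 0.223. With young replicate 1 left out the list had 2 higher and 10 lower members, in a fit that called 13.2% of all genes higher and 19.4% lower.

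The median log2 difference of 12 tested surface ligands and membrane partners was 0.12, against 0.01 over all genes. Of these 12, 1 was called higher and 0 lower, against 1.47% and 0.0999% of all genes. That gene was Cd47, an integrin-associated protein, at 3.78, 2.64 and 2.74 RPKM in young replicates 1, 2 and 3 and 17.1, 15.8 and 17.6 in the old ones. It rose by 2.15 ± 0.13 (SE, limma adjusted p = 0.000662). Plaur, the urokinase receptor gene, was at 5.99 ± 0.422 and 7.71 ± 0.134 RPKM, Cav1, the caveolin gene, at 4.8 ± 1.59 and 8.27 ± 0.728 RPKM. Neither was called (limma adjusted p = 0.211 and 0.249), and without young replicate 1 the list had 8 higher and 0 lower members, where 13.2% of all genes were called higher and 19.4% lower. Icam1, a ligand of beta2 integrins named after its values were seen, was under the filter at 0.018 ± 0.004 and 0.119 ± 0.0168 RPKM, with groups that did not overlap.

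No gene listed for the cytoplasmic machinery was called, and lists this short hold few calls where 1.57% of all genes were called. Of 22 tested integrin tail partners and focal adhesion genes, 0 were called in either direction. Their median log2 difference was 0.12, against 0.01 over all genes. Zyx, a focal adhesion protein gene, was at 7.03, 15.6 and 14.7 RPKM across the young libraries, against 17.5, 20.3 and 18.5 in the old (limma adjusted p = 0.509). Young replicate 1 was the lowest library, and the groups did not overlap. Kank2, a talin-binding protein gene, had an adjusted p of 0.511 by limma. Of 8 tested catenins and cadherin tail partners, 0 were called, against 1.57% of all genes, with a median of -0.08. Ctnnb1, beta-catenin, was at 35.6, 39.3 and 38.8 RPKM across the young libraries, against 33.8, 31.1 and 34 in the old (limma adjusted p = 0.505). Its groups did not overlap, and it was called lower without young replicate 1 (limma adjusted p = 0.0228). The groups of Pkp4 and Arvcf in this list did not overlap either, both lower in old, as in 10.2% of all genes. Afdn was also called lower without young replicate 1 (limma adjusted p = 0.0133), in a fit that called 19.4% of all genes lower. The p120-catenin relative Arvcf had an adjusted p of 0.53 by limma.

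Of 5 tested genes from the rest of the cadherin superfamily, 0 were called, where 1.57% of all genes were. Without young replicate 1, 3 were called lower (Fat1, Fat4 and Clstn1), in a fit that called 19.4% of all genes lower. The protocadherin genes Pcdh19 and Pcdh18 averaged 1.08 ± 0.187 and 3.17 ± 1.18 RPKM in young, 1.22 ± 0.0748 and 3.79 ± 0.189 in old (limma adjusted p = 0.856 and 0.859). The giant cadherins Fat1 and Fat4 were at 8.24 ± 4.2 and 6.68 ± 0.998 RPKM and at 1.5 ± 0.724 and 0.988 ± 0.115 RPKM (young, then old). Of 10 tested enzymes that cut or mature cadherins, 0 were called. Psenen, a gamma-secretase subunit, was the 1 called higher without young replicate 1, where 13.2% of all genes were. Without that library the focal adhesion list had 1 higher and 2 lower members and the catenin list 0 higher and 2 lower, against 32.6% of all genes called in either direction.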

How the data were processed

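RNA sequencing libraries from apoptotic osteoblast cultures were compared, 3 young against 3 old. The authors deposited RPKM values per gene, with exon positions and gene length. Per the submitters' processing notes, fastp, STAR, HTSeq, edgeR and mm10 were used; the sources used here give no versions, parameters, annotation or strand setting. RPKM times gene length gave whole reads for 100% of values (tolerance 0.01). Among genes with 1 to 5 reads, 77.5 to 79.3% had an even number, so reads are not independent molecules.

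Genes with RPKM of at least 1 in 3 or more libraries were fitted with limma 3.58.1 (R 4.3.3) on log2(RPKM + 1), group as the only term, with a variance trend, two-sided, adjusted over all genes. This scale understates changes of low genes. The fit was tested on simulated data. Alternatives were other pseudocounts, filters, scalings, variance models, library weights, voom, a length trend, a threshold, a replicate block and leaving out each library. Every expressed member is named, with members of at least 0.1 RPKM, and from each partner list the called genes and up to 4 in all of smallest p; others are said to be chosen later. The members and lists were chosen with earlier results of these data known. No set test was run.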

Additional observations from a re-analysis of the deposited data

How the results depend on the processing

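Calls of members depended on young replicate 1. The count called higher in old was 0, and 2 with library weights estimated from the data; the count called lower was 0, and 6 with those weights, which gave young replicate 1 a weight of 0.0425 against 0.819 to 4.12 for the others. Leaving out 1 library gave 0 to 2 higher and 0 to 5 lower, and only the fit without young replicate 1 was above 0. That fit and the weighted one called 32.6% and 42.2% of all genes. Every other setting called 0 members. The share of all calls that were higher in old was 93.7%, and 41.7% with library weights, 40.6% without young replicate 1 and 80.4% at an adjusted p under 0.1.

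Signs turned in these cases, and the cause was not tested. With quantile normalization the log2 difference was -0.008 for Itga11, -0.074 for Itga8, -0.012 for Itgb1 and -0.009 for Cdh22. With library weights it was -0.297 for Itga11, -0.023 for Itga8, -0.004 for Itgb1 and 0.046 for Itgb3. Leaving out 1 library gave -0.248 to 0.201 for Itga11, -0.074 to 0.111 for Itga8, -0.069 to 0.117 for Itgb1, -0.21 to 0.011 for Itgb3, -0.312 to 0.028 for Cdh11 and -0.028 to 0.066 for Cdh22. The turn came without young replicate 1 for the first 4 genes, without young replicate 2 for Cdh11, and without young or old replicate 2 for Cdh22. Itga2b, Itga3, Itga5, Itga9, Itga10, Itgav, Itgb5 and Cdh2 kept their sign in every alternative that tested them; Itga2b had passed the filter through the old group.

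The replicate number as a block called 0 members higher and 0 lower, and 82 genes higher and 0 lower over all genes (177 and 12 without the block). Leaving out 1 library other than young replicate 1 gave 80 to 138 genes higher and 0 to 2 lower. Deviations of same-numbered libraries from their group means correlated at -0.03, -0.44 and 0.33 for numbers 1, 2 and 3. Young replicates 1 and 2 correlated best with old replicates 2 and 3, and young replicate 3 with old replicate 3. Deviations within a group depend on each other, and young replicate 1 shapes those of its group. These values therefore cannot decide whether the numbers pair the libraries. At a mean of at least 5 RPKM, 7 members remained to be tested. With 3 libraries a group the intervals above set what could be seen.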
